A study of Drosophila melanogaster with 2 samples.

Results

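The 5 X-linked genes kirre, CG14434, lncRNA:CR44357, CG1677 and CHES-1-like were chosen by the number of E(var)3-9-GFP summits they hold, and are 5 of 18164 annotated genes on the 6 chromosome arms. A region was assigned to a gene where its summit, the position of highest enrichment, lay within the gene span or within 500 bp of any annotated transcription start site (TSS). By this rule the genes held 44 IDR peaks, that is, regions the authors kept after a filter on the irreproducible discovery rate (IDR), which compares ranks between replicates. The other 3394 IDR peaks of the series lay elsewhere. Because the number of IDR summits chose the genes, their counts, spacing and signal are given as description and no test was made.

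Chromatin immunoprecipitation followed by sequencing (ChIP-seq) was used to map E(var)3-9 in Drosophila melanogaster embryos. All samples belong to 1 group with 2 biological replicates, to which the labels give the numbers 2 and 3, and no other genotype or treatment was compared. Each was prepared from whole embryos of both sexes aged 0 to 24 h, from 1 stably transformed line carrying E(var)3-9 fused to green fluorescent protein (GFP) at its C-terminus, and the fusion was precipitated with an antibody against GFP. Whole embryos mix many tissues and stages, so a summit cannot be assigned to a cell type. The lists hold 30000 regions for each replicate and 24963 regions called on both replicates jointly, of which 13.8% were IDR peaks. Each region carries the authors' signal value, a score with no stated scale, and read depth is unknown. Positions are in assembly dm6 and gene models are those of Ensembl release 115.

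E(var)3-9 takes its name from its effect on variegation, the mosaic silencing of a gene that has been moved next to heterochromatin. kirre encodes an immunoglobulin-family adhesion protein of muscle founder cells that takes part in myoblast fusion, and CHES-1-like encodes a forkhead transcription factor. Genes with long introns can hold enhancers and whole smaller genes inside their spans, so a summit within a span may lie closer to a start site of another gene than to one of the host.

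Summits are numbered within each locus by rising coordinate, and lncRNA:CR44357 and CG1677 form 1 locus because their spans overlap. The windows below show the strongest IDR summit of each gene with 100 bp to each side, on the plus strand. They lie at chrX:3097113-3097313 in kirre, chrX:6863243-6863443 in CG14434, chrX:7307039-7307239 in the locus shared by lncRNA:CR44357 and CG1677, and chrX:7706919-7707119 in CHES-1-like. The last 2 windows are the strongest with a run of A, at chrX:2786655-2786855, and the strongest at a start site of its own gene, at chrX:7696972-7697172. Capitals mark every match, on either strand, to the 15 motifs described further on. CHES-1-like_9, the strongest summit of all 44, held none of them.
kirre_11: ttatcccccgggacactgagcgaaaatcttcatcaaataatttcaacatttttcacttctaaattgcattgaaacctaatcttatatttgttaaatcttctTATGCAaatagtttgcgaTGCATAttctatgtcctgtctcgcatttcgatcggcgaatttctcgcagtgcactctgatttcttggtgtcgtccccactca
CG14434_7: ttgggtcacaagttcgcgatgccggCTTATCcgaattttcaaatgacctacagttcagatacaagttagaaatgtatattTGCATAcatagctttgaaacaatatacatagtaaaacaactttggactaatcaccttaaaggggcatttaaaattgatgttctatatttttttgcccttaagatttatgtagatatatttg
lncRNA:CR44357_7: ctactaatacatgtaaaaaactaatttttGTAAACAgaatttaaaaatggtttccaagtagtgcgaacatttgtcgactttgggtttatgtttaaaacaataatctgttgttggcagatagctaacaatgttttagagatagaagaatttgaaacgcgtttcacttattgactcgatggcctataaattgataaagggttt
CHES-1-like_9: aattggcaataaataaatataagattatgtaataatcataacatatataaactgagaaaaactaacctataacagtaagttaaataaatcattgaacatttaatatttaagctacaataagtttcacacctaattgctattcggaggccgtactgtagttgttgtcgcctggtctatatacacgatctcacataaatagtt
kirre_3: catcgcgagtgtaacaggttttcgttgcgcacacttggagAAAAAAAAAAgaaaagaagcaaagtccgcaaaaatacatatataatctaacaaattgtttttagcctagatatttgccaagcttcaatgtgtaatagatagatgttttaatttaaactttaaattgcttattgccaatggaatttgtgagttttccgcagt
CHES-1-like_3: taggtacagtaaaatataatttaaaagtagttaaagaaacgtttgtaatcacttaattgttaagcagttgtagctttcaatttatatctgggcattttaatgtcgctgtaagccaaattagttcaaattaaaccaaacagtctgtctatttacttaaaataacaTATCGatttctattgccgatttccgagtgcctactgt

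lncRNA:CR44357 (FBgn0265457, chrX:7166451-7405797, minus strand) held 16 IDR summits in 239 kb, and CG1677 (FBgn0029941, chrX:7281089-7405797, minus strand) held 14 in 125 kb. All 14 of the CG1677 summits were also among the 16 of lncRNA:CR44357, so these counts describe the same regions. kirre (FBgn0028369, chrX:2740384-3134532, plus strand) held 11 in 394 kb. CHES-1-like (FBgn0029504, chrX:7682338-7709385, minus strand) held 10 in 27.0 kb. CG14434 (FBgn0029915, chrX:6851909-6867194, minus strand) held 7 in 15.3 kb.

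The 5 genes thus reached counts of 7 to 16 over spans of very different length. Per 10 kb of span, CG14434 held 4.58 summits, CHES-1-like 3.70, CG1677 1.12, lncRNA:CR44357 0.668 and kirre 0.279. Among the 395 X genes of 10 kb or more these densities ranked 2, 4, 35, 88 and 155. Of those 395 genes, 6 (1.52%) held at least 7 IDR summits, namely the 5 genes and CG42258, which also held 7 and had the highest density, at 4.70 per 10 kb. The next genes, with 6 each, were Hr4, a nuclear receptor, Moe, the actin-binding protein moesin, Ptpmeg2, a tyrosine phosphatase, Raf, a kinase of the MAP kinase pathway, and lncRNA:CR44999. Of the 23 other X genes of at least 100 kb, 17 held an IDR summit, with at most 6 in a gene and a median density of 0.0817 per 10 kb.

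**Figure D1:**
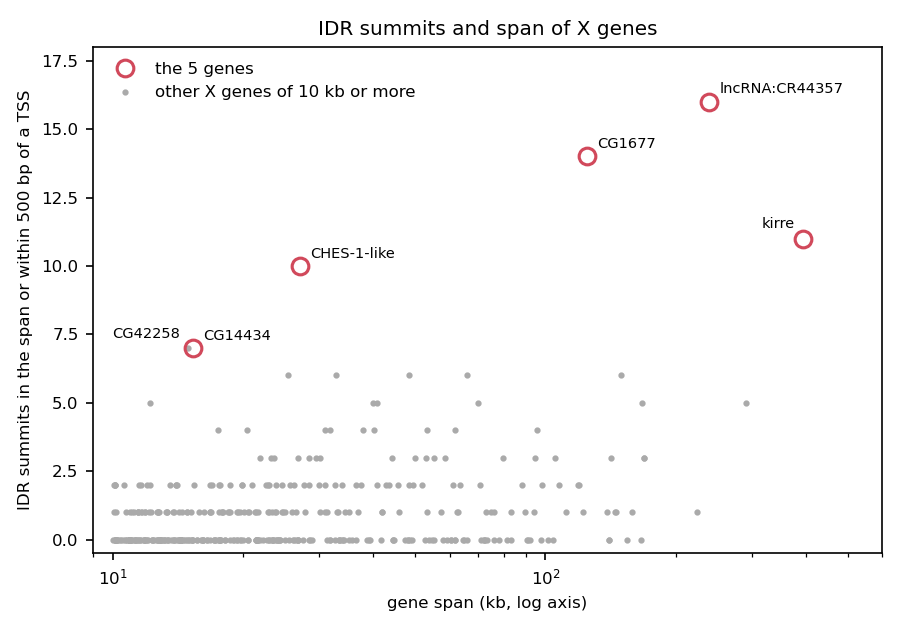
IDR summits per gene against gene span (kb, log axis) for the 395 X genes of 10 kb or more, with the 5 genes as open circles. CG14434 and CHES-1-like reached 7 and 10 summits in 15.3 and 27.0 kb, while kirre held 11 in 394 kb.

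The counts also depended on the list read. The strongest regions of a replicate are its top-ranked regions, as many as there are IDR peaks. Among them, replicate 2 and replicate 3 gave 12 and 12 for kirre, 6 and 5 for CG14434, 12 and 14 for lncRNA:CR44357, 10 and 12 for CG1677, and 9 and 10 for CHES-1-like. Over the 5 genes together the strongest regions numbered 39 in replicate 2 and 41 in replicate 3. The complete replicate lists held 216 and 214 regions in the genes, and the joint list held 198.

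Passing was uneven among the loci. Of the joint regions, 50% passed the IDR threshold in CHES-1-like (10 of 20) and 46.7% in CG14434 (7 of 15), against 23.2% in the lncRNA:CR44357 and CG1677 locus (16 of 69), 11.7% in kirre (11 of 94) and 13.8% of the whole joint list. The count of IDR summits chose the genes, so nothing is read from these shares. The IDR list was the same as the top of the joint list ranked by signal. The weakest member above the threshold was lncRNA:CR44357_4 with a joint signal of 59.2 (rank 3342), and the strongest region below it was a CG14434 region with 57.7 (rank 3483).

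**Figure D2:**
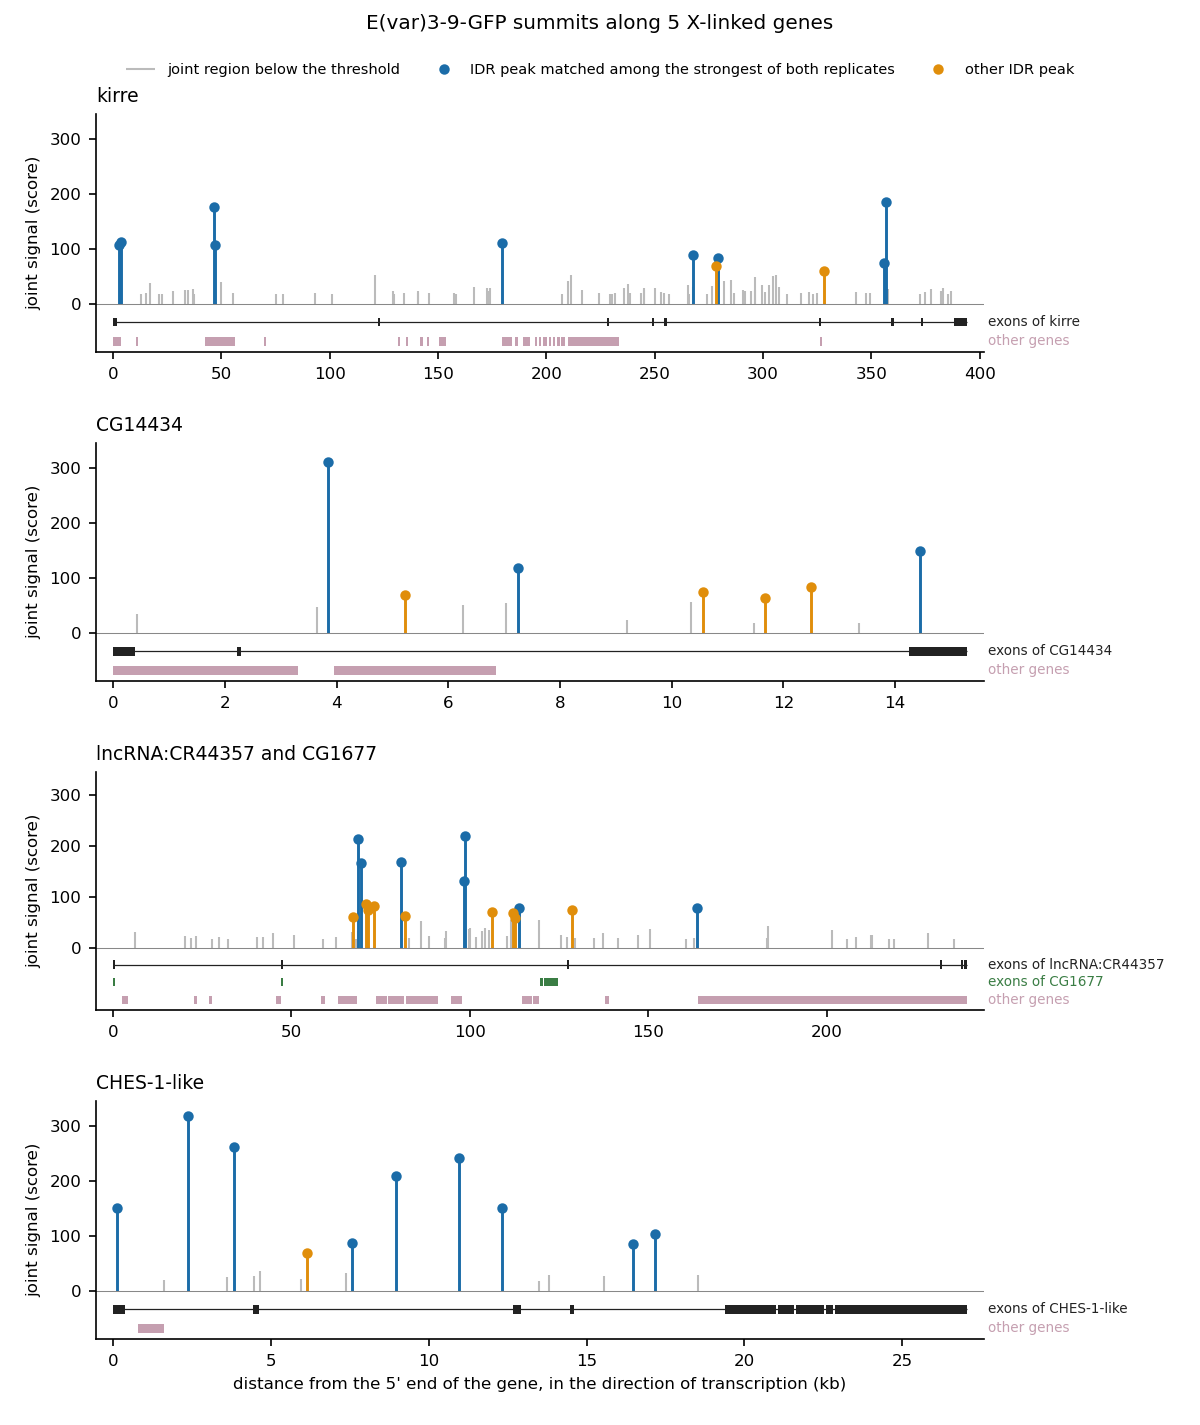
Joint signal (score) of each region against distance from the 5' end of the gene (kb), with blue points for IDR peaks that each replicate held among its strongest regions, orange points for other IDR peaks and grey lines for joint regions below the threshold. Boxes show exons of the named gene and other annotated genes; in CHES-1-like all 10 IDR summits lay in the first 17.2 kb, and in CG1677 all 14 lay in the 72.5 kb stretch after its second exon.

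In CHES-1-like, IDR summits covered the promoter-proximal introns and stopped before the block of exons at the 3' end. The stretches between its exons, counted from the 5' end, held 2 summits in the first (4.03 kb), 5 in the second (8.07 kb) and 2 in the fourth (4.79 kb). CHES-1-like_9 had the highest joint signal of the 44 summits, 317, with 149 in replicate 2 and 171 in replicate 3. CHES-1-like_8 had a joint signal of 262, with 143 in replicate 2 and 127 in replicate 3. CHES-1-like_4 had 243, with 141 in replicate 2 and 102 in replicate 3. Both replicates held all 3 among their strongest regions, and the gene's median joint signal, 151, was the highest of the 4 loci.

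At its own start sites, CHES-1-like had CHES-1-like_10, 139 bp downstream of the most distal TSS, and CHES-1-like_3, 368 bp upstream of an internal TSS. CHES-1-like_3 had a joint signal of 151, with 80.7 in replicate 2 and 63.7 in replicate 3. CHES-1-like_10 also had 151, with 83.6 in replicate 3. Its nearest region in replicate 2, 71 bp away, had only 22.8 (rank 6482), while the strongest replicate 2 region within 150 bp had 77.1. The weakest summit of the gene, CHES-1-like_7, had 69.0, with 30.2 in replicate 2 and 35.7 in replicate 3. It was also the only one of the 44 whose window was not made entirely of 36-base stretches found once in the genome: 25.3% of them were unique, and the window was soft-masked throughout.

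In CG14434, a gene to which no role is assigned here, 6 of the 7 IDR summits fell in the stretch of 11959 bp between its second and last exons. CG14434_7 had a joint signal of 311, with 165 in replicate 2 and 141 in replicate 3, and lay 545 bp upstream of a TSS of the overlapping gene CG43736. CG14434_1 lay 111 bp upstream of a CG14434 TSS, with a joint signal of 150 and 89.0 and 58.0 in replicates 2 and 3. CG14434_5 lay 385 bp upstream of lncRNA:CR45531. These 3 summits were the ones that both replicates placed among their strongest regions.

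Of the weaker CG14434 summits, 3 were among the strongest regions of replicate 2 alone and 1 of replicate 3 alone. CG14434_3, the weakest, had a joint signal of 64.1, with 53.0 in replicate 2 and 13.7 in replicate 3. CG14434_4 had a joint signal of 74.9 and 51.8 in replicate 2, but no replicate 3 region within 150 bp. The nearest replicate 3 region, 193 bp away, had a signal of 26.4. CG14434_4 was the only summit of the 44 without a match in a complete replicate list. At the distal TSS of CG14434 no IDR summit fell within 500 bp, and the nearest lay 546 bp away, at the promoter of CG43736.

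In the locus of lncRNA:CR44357 and CG1677, 14 of 16 IDR summits lay in 1 stretch between exons, 80.1 kb long in lncRNA:CR44357 and 72.5 kb in CG1677, and those 14 spanned 46.6 kb. The first stretch of both genes, 46.5 kb long, held none, and the TSS that both genes share was 67.1 kb from the nearest IDR summit. The nearest region of any kind in the joint list was 6245 bp from this TSS, with a signal of 31.0. Many of the 16 lay near smaller genes inside the span, 8 of them within 1 kb of a TSS of such a gene.

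Of these, lncRNA:CR44357_7 and lncRNA:CR44357_8 lay 800 and 601 bp upstream of brk, which encodes a repressor of targets of the BMP ligand Dpp. lncRNA:CR44357_7 had a joint signal of 220, with 126 in replicate 2 and 101 in replicate 3, and was the strongest in the locus. lncRNA:CR44357_8, 199 bp from it, had 131 and shares with it the same replicate 3 region, so the replicate 3 values of these 2 summits are not independent. lncRNA:CR44357_15 lay 325 bp upstream of CBP with a joint signal of 214, with 111 in replicate 2 and 96.9 in replicate 3. lncRNA:CR44357_9 lay 74 bp upstream of the autophagy gene Atg5 and 370 bp from the TSS of Dok, an adaptor of tyrosine kinase signalling, with a joint signal of 63.6, and had 19.7 in replicate 2 against 40.8 in replicate 3. The weakest, lncRNA:CR44357_4, had 59.2, with 32.9 and 23.2 in replicates 2 and 3, and was the only one of the 44 that neither replicate placed among its strongest regions.

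kirre showed the opposite arrangement: a few close pairs far apart. Of its 17 stretches between exons, 4 held IDR summits, with 4 in 122 kb, 1 in 105 kb, 3 in 70.6 kb and 3 in 33.0 kb. kirre_11 had the highest joint signal in the gene, 186, with 106 in replicate 2 and 81.9 in replicate 3, and lay 2337 bp upstream of a kirre TSS. kirre_3 had 177, with 96.7 in replicate 2 and 83.3 in replicate 3, and lay inside CG32795. The weakest, kirre_9, had 60.2, with 42.4 in replicate 2 and 16.6 in replicate 3. None of the 6 TSSs of kirre had an IDR summit within 500 bp, and the nearest was 2337 bp away.

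Several other genes lie inside the kirre span. kirre_1 and kirre_2 lay 343 and 181 bp upstream of TSSs of Syx4, which encodes a syntaxin of the membrane fusion machinery, with joint signals of 107 and 112. kirre_5 lay 167 bp downstream of the TSS of CG3588, with 112. rst, which encodes an adhesion protein related to Kirre, and w, the eye pigment transporter gene white, had no IDR summit within 500 bp of a TSS. Over all the loci, 2 of 23 other genes overlapping kirre had an IDR summit at a TSS, 2 of 2 overlapping CG14434, 3 of 15 overlapping lncRNA:CR44357 and 0 of 1 overlapping CHES-1-like. Of the genes overlapping CG14434, CG43736 counts only through summits beyond the CG14434 span, which are not among the 44. The share of all genes with an IDR summit at a TSS was not computed, so these counts have no comparison.

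Most summits had a close neighbour in every locus, but the distances between groups of them differed. The 40 distances between neighbours within a locus had a median of 1563 bp and ran over 199 to 132509 bp, against 14318 bp over the 626 neighbouring IDR summits of the whole X. This median was 2209 bp in the strongest regions of replicate 3 alone and 3277 bp in those of replicate 2 alone. The median was 1451 bp in CHES-1-like, 1664 bp in CG14434, 1493 bp in the lncRNA:CR44357 and CG1677 locus and 19435 bp in kirre. In kirre 4 distances were under 1 kb and the other 6 exceeded 10 kb, so that 8 of its 11 summits (72.7%) had a neighbour within 1 kb, against 2 of 10 (20%) in CHES-1-like. The lncRNA:CR44357 and CG1677 locus also held distances of 14869, 16506 and 35074 bp. Of the 44 summits, 36 (81.8%) had another IDR summit within 2 kb, against 30.0% of the 583 other IDR summits on X. The genes were chosen by their number of summits, so this closeness is in part built into the choice.

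**Figure D3:**
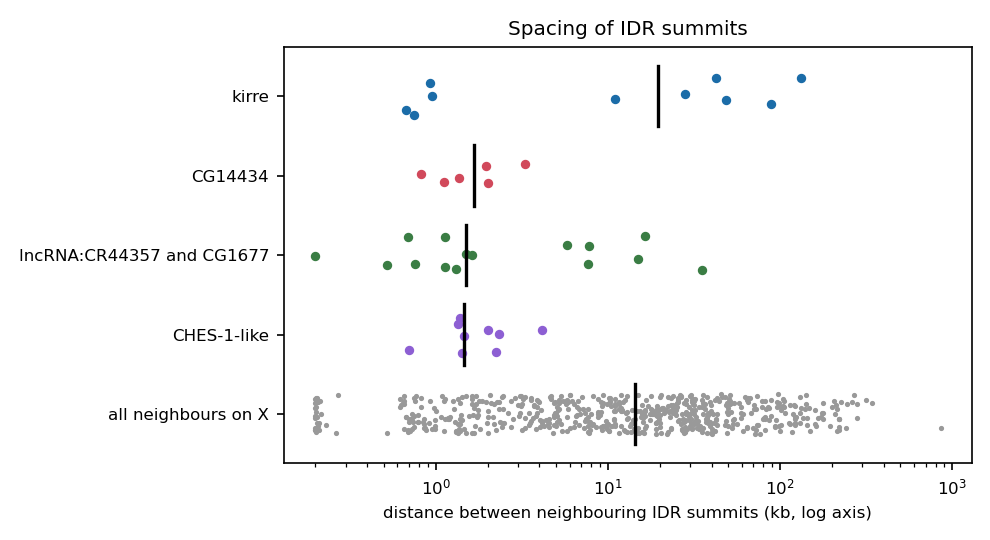
Distance between neighbouring IDR summits (kb, log axis) within each locus and for all 626 neighbouring pairs on X, with 1 point per pair and black bars at the medians. CG14434 and CHES-1-like stayed under 5 kb, while kirre splits into pairs under 1 kb and distances over 10 kb.

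Taking the 44 summits together, 34 (77.3%, 95% Wilson interval 63.0 to 87.2%) lay in introns away from promoters and 9 (20.5%) lay within 500 bp of a TSS. The interval counts summits as independent, though they cluster within loci, and measures no spread over genes or replicates. Among the other IDR peaks on X, 43.1% were intronic and 46.5% at promoters, and among all other IDR peaks of the series 32.5% and 54.3%. The spans themselves are mostly intron: 81.4% of their bases are intron outside promoters and 8.44% lie within 500 bp of a TSS, so the intron share was close to that of the sequence. Of the 9 promoter summits, 3 lay at a TSS of the host gene and 6 at that of another gene. None of the 44 summits fell on a coding base, while 6.10% of the span bases are coding. A count of 0 still allows a share of up to 6.82%, a limit set at 3 of 44 and not a Wilson limit. Of the 3394 other IDR peaks in the series only 9 fell on a coding base, so the absence says nothing particular about the genes. Of the 44, 25 (56.8%) lay over 1 kb and 18 (40.9%) over 2 kb from every TSS, against 43.1% and 30.0% of other IDR peaks on X and 35.9% and 24.9% of all other IDR peaks.

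The signal of the 44 summits lay close to that of other IDR peaks. The 44 had a median joint signal of 88.1 (59.2 to 317), against 87.4 for other IDR peaks on X and 89.4 for all other IDR peaks. The medians by locus were 151 in CHES-1-like, 107 in kirre, 84.0 in CG14434 and 78.9 in the lncRNA:CR44357 and CG1677 locus. Of the 44, 15 (34.1%) were among the 860 strongest IDR peaks, against 22.3% of other IDR peaks on X, and 6 of those 15 lay in CHES-1-like.

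Replicates placed most of the summits alike. IDR peaks were kept by a filter that compares these replicates, so such agreement is in part built into the list and is given as description. In the complete lists 43 of 44 had a summit within 150 bp in both replicates (97.7%, against 96.0% of all other IDR peaks). Among the strongest regions, 28 of 44 were matched in both replicates (63.6%, 95% Wilson interval 48.9 to 76.2%), against 72.9% of other IDR peaks on X and 69.5% of all IDR peaks. The 28 divided into 9 of 11 in kirre, 3 of 7 in CG14434, 7 of 16 in the lncRNA:CR44357 and CG1677 locus, and 9 of 10 in CHES-1-like. Of the other 16, 8 were among the strongest of replicate 2 alone, 7 of replicate 3 alone and 1 of neither. Counted in full, replicate 2 held 36 of the 44 among its strongest regions and replicate 3 held 35. Of the 3394 other IDR peaks, replicate 2 held 2931, replicate 3 held 2747, both held 2360 and neither held 76. Summits held by a single replicate, or by neither, were thus also found elsewhere in the series. All 21 members with a joint signal over 100 were matched in both, against 97.7% of the 1410 such IDR peaks in the series.

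Replicate 2 had the higher signal at 32 of the 43 summits with a value in both (74.4%), against 80.6% of all other IDR peaks, and the median log2 ratio of replicate 2 to replicate 3 was 0.34, against 0.46. Signals of the 2 replicates had a Spearman correlation of 0.603 over the 43 summits and of 0.610 over 3259 other IDR peaks, as a description of sites that share 2 libraries. Read from the strongest rather than the nearest replicate region within 150 bp, a choice added after the values were seen, the correlation was 0.686 over the 43 and 0.619 over the others, and CHES-1-like_10 was the only summit of the 43 whose values differed between these readings. For single loci only the nearest region was read. The correlation was then 0.827 in kirre (n = 11), 0.771 in CG14434 (n = 6) and 0.721 in CHES-1-like (n = 10). It was 0.361 in the lncRNA:CR44357 and CG1677 locus (n = 16), where lncRNA:CR44357_7 and lncRNA:CR44357_8 share 1 replicate 3 region. The CHES-1-like value includes CHES-1-like_10, with 22.8 in replicate 2 by the nearest reading and 77.1 by the strongest. The order of the loci therefore depends on the reading and is not interpreted.

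**Figure D4:**
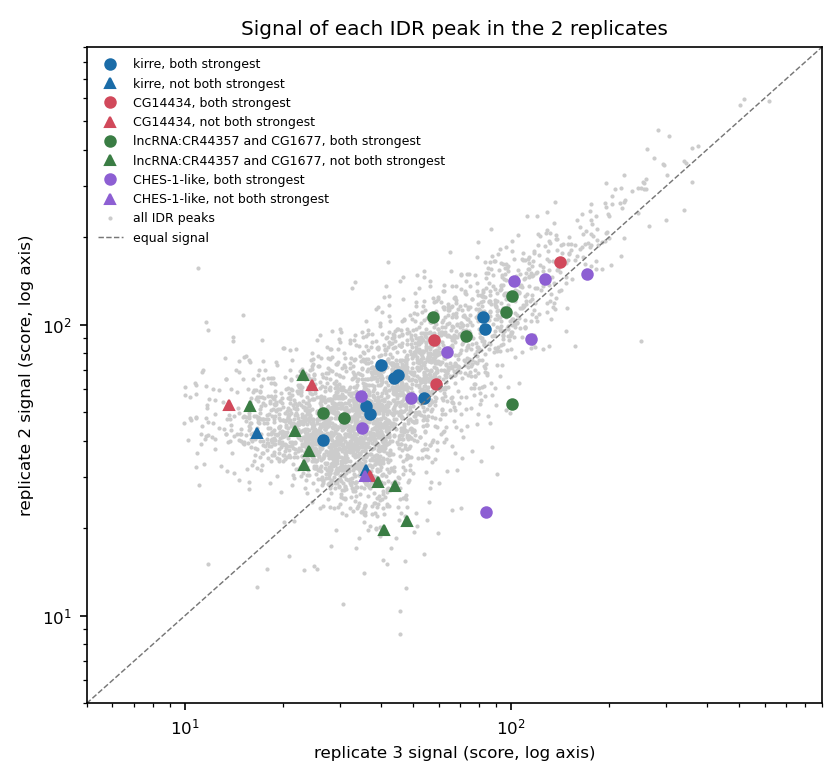
Signal in replicate 2 against signal in replicate 3 (scores, log axes) for every IDR peak found in both complete lists, with the 43 summits of the 5 genes coloured by locus. Circles were matched among the strongest regions in each replicate, triangles were not, and the dashed line marks equal signal.

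Below the threshold the genes held 154 further joint regions. Of these, 134 (87.0%) were intronic, against 44.6% of all 21525 joint regions below the threshold. Regions were assigned by gene span, and 81.4% of the bases of the spans are intron outside promoters, so a high intron share is built in. Both complete replicate lists held 51 of the 154 (33.1%), against 29.6%. The strongest replicate lists held 10 regions in the genes with no IDR summit within 150 bp, 3 of 39 in replicate 2 and 7 of 41 in replicate 3. The same share over all strongest regions of the series was not computed. These counts, and the difference between the replicates, therefore say nothing particular about the genes.

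Windows of 100 bp to each side of the 44 summits had a median GC content of 32.3%, against 35.3% for other IDR peaks on X and 33.3% for all IDR peaks. CHES-1-like was lowest at 28.9%. A run of 8 A or T (AAAAAAAA) was found in 14 windows (31.8%), against 16.6% of all IDR peaks and 19.0% of other intronic ones. TGCATA, part of the Su(Hw) site, was found in 9 (20.5%, against 16.3% of all IDR peaks and 17.2% of other intronic ones). CGATA was found in 8 (18.2%), against 28.3% of all IDR peaks and 19.96% of other intronic ones, the class that most of the 44 belong to. CGATA is contained in the DRE motif TATCGATA, found in 1 window (2.27%, against 3.14%).

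Other motifs were found in few windows. The forkhead motif TGTTTAC was found in 3 windows (6.82%, against 5.67% of all IDR peaks), and CATCNCTA, known as Motif 7, in 2 (4.55%, against 3.84%). GAGAGA was found in 2 (4.55%, against 9.42%), and CAGCTG and GATAAG in 1 each (2.27%, against 7.65% and 10.5%). ATATATAT was found in none, against 6.43% of all IDR peaks, and CACACACA in none, against 2.04%. GAGAGAGA, GGTCACAC, CAGGTAG and CGCGCG were also found in none, against 1.31%, 1.28%, 0.756% and 0.669%. The longest stretch shared by any 2 of the windows was 17 bp, between kirre_11 and CHES-1-like_4, and 0 of 945 pairs shared more than 20 bp.

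Relatives of CHES-1-like and kirre were read against the 20.6% of all protein-coding genes that held an IDR summit. This share takes no account of gene length: among the 395 X genes of 10 kb or more, 46.8% held one. Several of the listed fusion genes are long, such as pyd (105 kb), sns (57.6 kb) and rols (56.6 kb), and the effect of length was not tested. Of 19 forkhead genes listed, 17 were found in the annotation and 3 held an IDR summit: CHES-1-like with 10, jumu with 3 and foxo, a factor of insulin signalling, with 1. Without CHES-1-like, which was chosen by its count, this is 2 of 16. Of 14 genes listed for irre cell recognition or myoblast fusion, 13 were found and 7 held an IDR summit, namely kirre with 11, mbc with 3, rols, Cals and Sur-8 with 2 each, and Mef2 and pyd with 1 each. Without kirre, also chosen by its count, this is 6 of 12, and the places of Cals and Sur-8 in the list are uncertain. rst, sns and hbs, which encode adhesion proteins that work with Kirre or in the same family, held none.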

How the data were processed

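E(var)3-9-GFP ChIP-seq regions of 2 biological replicates were used as deposited in assembly dm6. Per the notes deposited by the authors, each replicate has a list of peaks and background meant for the IDR comparison, a joint list was made from both replicates with a control, and the IDR peaks are those joint regions kept by the filter. The signal value is a score in the deposited lists, made by the authors. For aligner, peak caller and IDR cutoff, names and values were not given in the sources used here. Read depth is unknown, so intervals cover counting of regions only. They count clustered summits as independent and are given as description. Signal tracks, the control and the dm3 lists are not analysed here.

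Positions were read as 1-based. Genes came from Ensembl release 115, and 2704 of 2704 X genes matched by symbol had the same start and end in RefSeq. Replicate regions were matched by the nearest summit within 150 bp. The strongest regions are the top-ranked of each list, as many as there are IDR peaks. Motifs were looked for on either strand, up to 100 bp from a summit. Genes named are the members, overlapping genes with a TSS summit or mentioned for position, the next X genes by count, and listed relatives. Members and lists were chosen with earlier results of these data known. Counting and matching were tested on simulated data. Python 3.11.15, numpy 2.4.6, pandas 2.3.3, scipy 1.17.1 and matplotlib 3.10.9 were used.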

Additional observations from a re-analysis of the deposited data

How the results depend on the processing

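The 44 summits became 15 among the 860 strongest IDR peaks and 198 over every joint region. Leaving a replicate out here means reading the strongest regions of the other replicate alone, not a new IDR filter. These numbered 41 without replicate 2 and 39 without replicate 3, and 35 and 36 of the 44 had a match among them. The median spacing of 1563 bp was 2209 bp without replicate 2 and 3277 bp without replicate 3. The intron share of 77.3% was 84.8% over every joint region and ran over 73.2 to 79.5% when a replicate was left out. The median joint signal of 88.1 was 186 among the 860 strongest and 27.4 over every joint region. Without replicate 2 and without replicate 3 it was 43.8 and 62.0, which are values of the single-replicate lists and not on the joint scale. The share matched in both replicates, 63.6%, was 100% among the 860 strongest and 97.7% with complete lists. Any motif was found in 68.2% of windows with 100 bp to each side and in 34.1% with 50 bp, which are shorter windows. The share of all IDR peaks with any motif was not computed, so these 2 shares say nothing particular about the genes. Reading the strongest region within 150 bp, an alternative chosen after seeing the data, moved the Spearman correlation from 0.603 to 0.686 and the Pearson correlation of log2 signals from 0.598 to 0.670. No paired analysis was possible because there is 1 group. With no control values and unknown depth, background at these genes was not measured here.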
